A study of Bos taurus with 9 samples.

Results

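Heat shock proteins and J-domain chaperones were taken from the gene table by symbol: every gene whose symbol begins with HSPA, HSPB, HSPD, HSPE, HSPH, HSP90 or DNAJ, with CRYAB, HSF1 and HSF2, and without 7 chaperones of the endoplasmic reticulum. That gave 70 of the 22127 genes listed, 69 of them protein coding and 1, DNAJB3, a pseudogene. They comprise 2 HSP90 genes, 12 of HSP70 and HSP110, 2 of the mitochondrial chaperonin, 9 of the small heat shock proteins, 15 J-domain genes of classes A and B, 26 of class C, 2 heat shock factors, and 2 genes, HSPBP1 and HSPBAP1, that share the prefix but encode proteins which bind heat shock proteins.

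RNA was sequenced from bovine blastocysts collected on day 8, in 9 libraries of 3 per medium. A library was a pool of 9 to 11 embryos. The cumulus-oocyte complexes had been matured in control medium with 5.5 mM glucose, in low glucose medium with 2.75 mM, or in low glucose medium (2.75 mM) supplemented with 1.8 mM BHB, taken here as beta-hydroxybutyrate, a ketone body, which the labels do not spell out. All groups shared the same fertilisation and embryo culture, and the serum, pyruvate, FSH and estradiol of the maturation medium, so the media differed during maturation, before fertilisation. Nothing in the labels ties the replicates to separate cultures, and the p-values therefore measure the spread between these pools, which may be technical.

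Heat shock proteins are molecular chaperones: they bind unfolded or aggregating proteins and help them fold, move between compartments or reach degradation. HSP70 works in cycles of ATP use that J-domain proteins start, HSP90 takes over partly folded clients such as receptors and kinases, small heat shock proteins hold clients without ATP, and HSF1 switches on many of these genes when proteins misfold. In cattle embryos heat shock genes are commonly read as signs of stress during culture, and some of them are transcribed from genome activation on without any stress.

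Levels are given as CPM, the count of a gene per 1e+06 counts of its library, scaled by TMM factors, which correct for library composition. The libraries held between 55611205 and 75178898 estimated counts, so 1 count stood for 0.0135 to 0.0182 CPM. Markers of the blastocyst lineages were present: all 12 of the trophectoderm list and all 8 of the hypoblast list had counts, as did the 6 epiblast genes in the table. Fitted changes come from edgeR's quasi-likelihood test on all 16469 genes that passed a filter on low counts, with p-values adjusted by Benjamini-Hochberg over all of them and a threshold of 0.05. Of the 70 members, 66 were tested. HSPB9, DNAJC5B and DNAJC5G had no count in any library, and DNAJB7 had 49 counts over all 9 libraries, too few to pass the filter.

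Together the 70 members took 1.57% ± 0.0752 of the counts of a control library (SD, n = 3). The share was 1.55% ± 0.0558 under low glucose and 1.57% ± 0.131 when BHB was added (SD, n = 3 each). The lowest share was 1.42%, in BHB replicate 1, and the highest was 1.66%, in BHB replicate 2, so the range of the BHB libraries covered those of the other media. HSP90AA1, HSPA8, HSPB1 and HSP90AB1 held 70.3% of the members' summed CPM. These are shares of sequenced fragments and were not divided by transcript length, so they do not rank the genes by number of molecules.

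**Figure D1:**
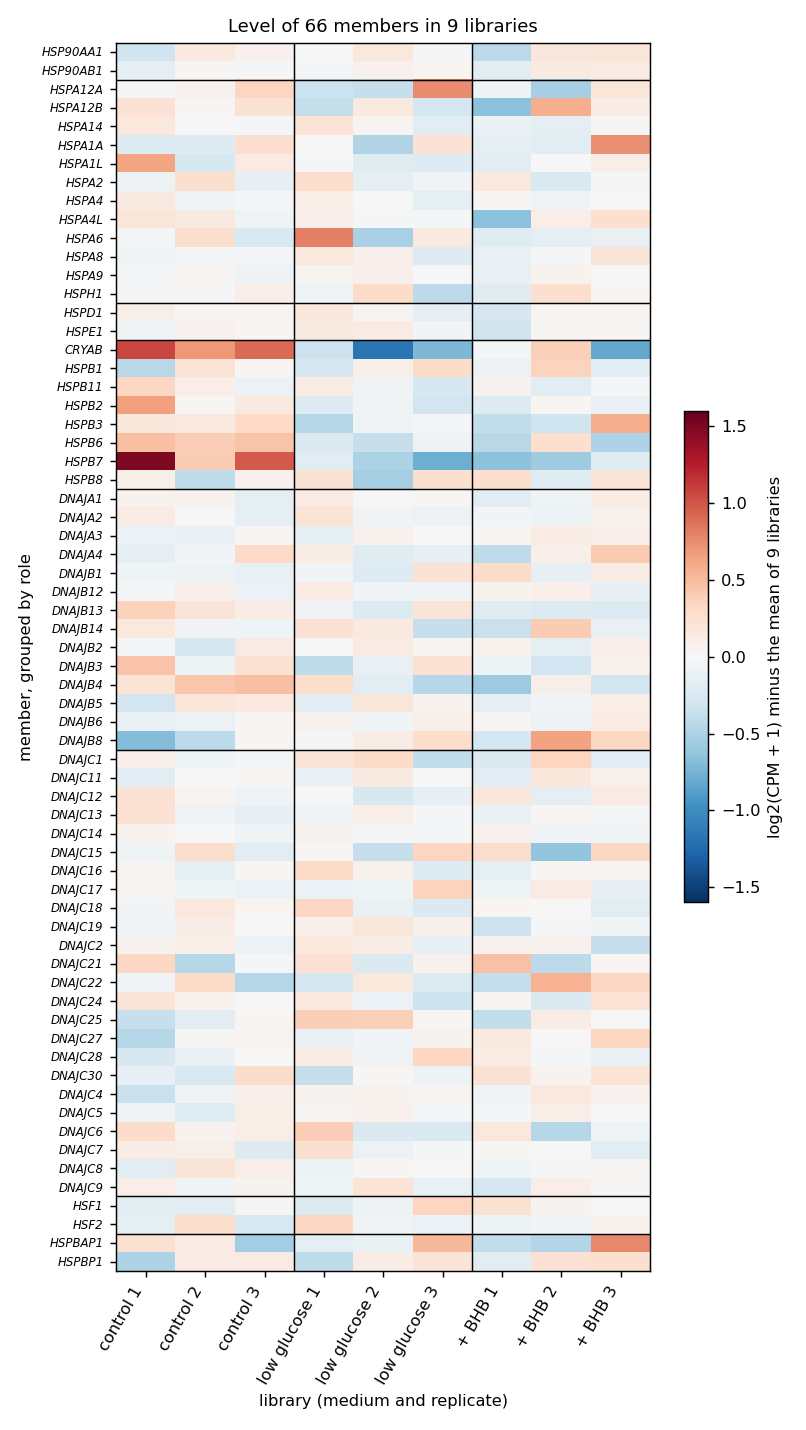
Level of each of the 66 tested members (rows, grouped by role) in each of the 9 libraries (columns), as log2(CPM + 1) minus the mean of the 9 libraries, from blue (low) to red (high). The 3 control columns are all red in CRYAB, HSPB7 and HSPB6, lightly so in HSPB6 and in control replicate 2 of HSPB7. HSP90AB1, HSPA8 and HSPA9 stay pale in every library. HSP90AA1 and the chaperonin genes are lightly blue in BHB replicate 1, and HSP90AA1 also in control replicate 1.

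By the median, replicates differed less in members with more counts, though not in each of them. The coefficient of variation within groups, averaged over the 3 media, had a median of 8.52% in the 19 members at 100 CPM or more and of 19.9% in the 47 below. DNAJC14, which is below 100 CPM, was among the steadiest, between 89.8 and 98.3 CPM in all 9 libraries, and HSPA9 lay between 635 and 726 CPM.

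The HSP90 genes did not pass the test in any comparison. HSP90AA1, the stress-inducible cytosolic form, stood at 2719, 3782 and 3559 CPM in the control libraries, at 3403, 3809 and 3365 CPM in low glucose and at 2526, 3853 and 3872 CPM with BHB. Replicate 1 was the lowest of its medium in control and with BHB, and the 3 media overlapped. Its log2 difference was 0.07 in low glucose (95% interval -0.29 to 0.44) and 0.03 with BHB (-0.34 to 0.39). HSP90AB1, the constitutive form, averaged 1902 ± 109, 1996 ± 73.6 and 2020 ± 251 CPM in control, low glucose and BHB libraries (SD, n = 3 each).

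Of the 12 genes of HSP70 and HSP110, none passed in low glucose or with BHB in edgeR, and none reached an unadjusted p under 0.05. DESeq2 and limma-voom also called none, and no group of libraries lay apart from control. Over all genes, edgeR called 2.02% and 1.38% lower, and 7.33% and 7.32% had an unadjusted p under 0.05. Libraries lay wholly below control in 8.85% and 8.56% of all genes and wholly above in 4.31% and 4.77%. HSPA8, the constitutive cytosolic HSP70, was tightly grouped in control at 3164, 3225 and 3191 CPM. It spread more widely in low glucose, at 3670, 3453 and 2839 CPM, and with BHB, at 3013, 3197 and 3755 CPM, on both sides of control. The stress-inducible HSPA1A, the classical readout of heat shock, stood at 137, 137 and 192 CPM in control, at 159, 114 and 186 CPM in low glucose and at 142, 139 and 264 CPM with BHB. BHB replicate 3 was the highest of all 9 libraries, and the other two BHB libraries lay within the control range. HSPA1A had a log2 difference of -0.02 in low glucose (95% interval -0.57 to 0.53) and of 0.23 with BHB (-0.32 to 0.77).

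HSPA9, the HSP70 of mitochondria (mortalin), averaged 683 ± 29.9, 706 ± 21.5 and 680 ± 40.8 CPM in control, low glucose and BHB (SD, n = 3 each). HSPA4 and HSPH1, relatives of the HSP110 kind that exchange nucleotides on HSP70, had log2 differences of -0.03 and -0.06 in low glucose and of -0.04 and 0.02 with BHB. HSPA2, known from spermatogenesis, stood at 0.01 and -0.05 in the same comparisons. HSPA1L, the neighbour of HSPA1A, reached 1.51 CPM in control replicate 1 and lay between 0.362 and 0.773 CPM in the other 8 libraries, giving -0.89 in low glucose (edgeR adjusted p = 0.982).

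The HSP70 counts were partly estimated. In the table, HSPA1A was a whole number in 4 of 9 libraries within 0.01 counts, whereas the sum of HSPA1A, HSPA1L and HSPA6 was whole in all 9, so these genes divided fragments among them and single values of the weaker copies are uncertain. The differences of the 12 genes spanned -0.89 to 0.31 in low glucose and -0.69 to 0.23 with BHB, the widest in genes with few counts. HSPA4L had 3 counts in BHB replicate 1 and 37 to 59 in the other libraries. By likeness over the 9 libraries, the tested genes whose log2(CPM + 1) followed HSPA1A most closely were RARB, CDC42EP2 and ENSBTAG00000054466, which has no symbol in the table, with Pearson correlations of 0.937, 0.936 and 0.916. These are the highest of all genes tested over 9 points that share libraries and scaling, and serve as a description.

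HSPD1 and HSPE1, the chaperonin of the mitochondrial matrix and its lid, are neighbouring genes in RefSeq's ARS-UCD2.0 assembly. HSPD1 stood at 591, 562 and 559 CPM in control, at 626, 566 and 498 CPM in low glucose and at 456, 557 and 566 CPM with BHB. HSPE1 stood at 256, 279 and 268 CPM in control, at 294, 290 and 258 CPM in low glucose and at 213, 270 and 270 CPM with BHB. BHB replicate 1 was the lowest library for both genes, and the media overlapped. The log2 difference with BHB was -0.12 for HSPD1 (95% interval -0.38 to 0.14) and -0.10 for HSPE1 (-0.35 to 0.16).

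**Figure D2:**
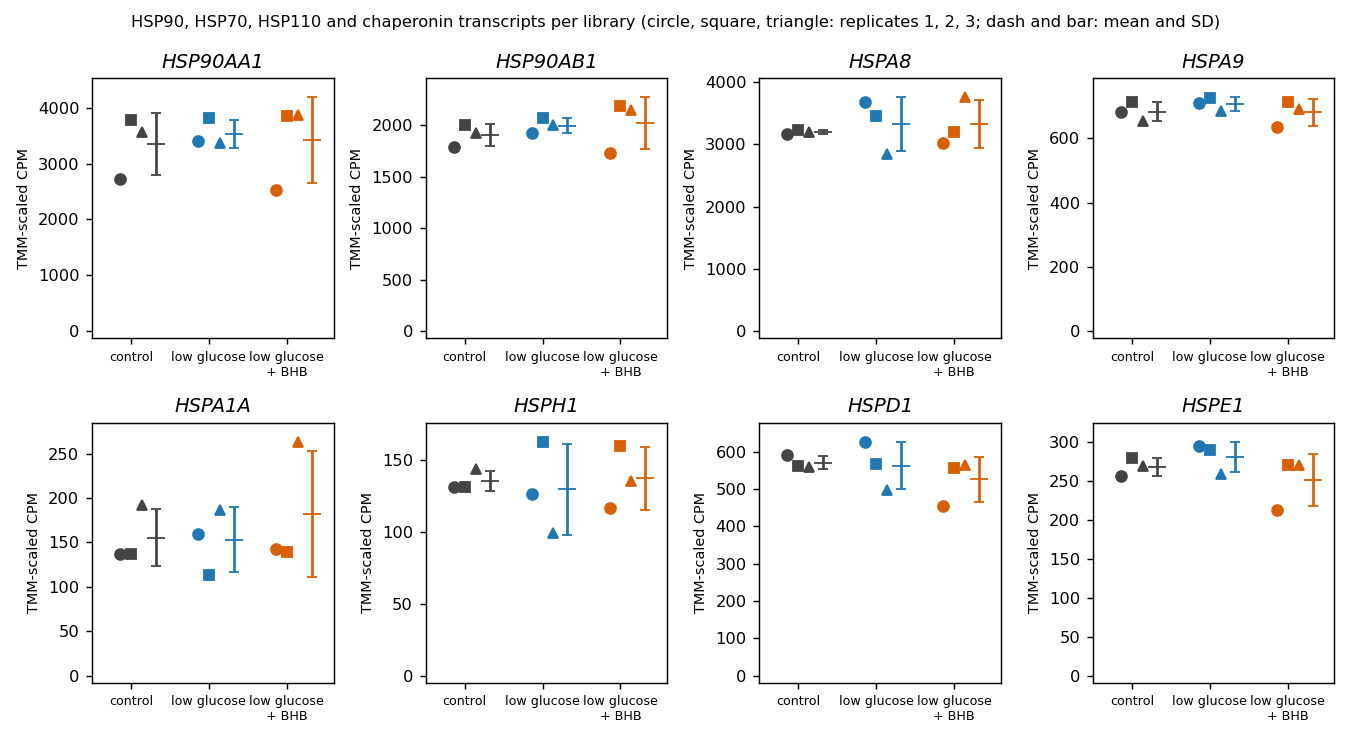
TMM-scaled CPM of 8 HSP90, HSP70, HSP110 and chaperonin genes in each library, by medium (circle, square and triangle for replicates 1, 2 and 3), with the mean and SD beside the points. In each panel the 3 media overlap, as in HSPA8, where control libraries lie between 3164 and 3225 CPM and the others on both sides of them.

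In edgeR, the members that passed the threshold in any comparison were both small heat shock proteins. CRYAB and HSPB7 fell in low glucose, which makes 2 of the 8 tested genes of this role and 2 of the 66 tested members (3.03%). Over all genes, 2.02% were called lower, 0.00607% higher and 2.03% in either direction. No member was called higher by edgeR, DESeq2 or limma-voom, and 4 of 66 members had an unadjusted p under 0.05, against 7.33% of all genes. The 3 of these that were lower, CRYAB, HSPB7 and HSPB6, are small heat shock proteins, and DNAJC25 was higher.

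CRYAB (ENSBTAG00000000434) encodes alpha-B-crystallin, which is abundant in lens and muscle and protects intermediate filaments. It stood at 6.65, 4.86 and 5.84 CPM in control, at 1.89, 0.619 and 1.22 CPM in low glucose and at 2.58, 3.75 and 1.07 CPM with BHB, from 44 counts in the poorest library to 396 in the richest. Every library of both low glucose media lay below every control library. The log2 fold change in low glucose was -2.22 (SE 0.481, edgeR adjusted p = 0.0324), a 4.65-fold fall. That call was lost on leaving out any one of the 3 control replicates, or low glucose replicate 2 or 3, at adjusted p between 0.0619 and 0.133, with log2 fold changes of -1.88 to -2.33. With BHB the difference from control was -1.23 (SE 0.464, edgeR adjusted p = 0.471), and between the low glucose media it was 0.99 (95% interval -0.03 to 2.01).

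HSPB7 (ENSBTAG00000055045), a small heat shock protein of heart and skeletal muscle, stood at 4.89, 1.77 and 3.12 CPM in control. The low glucose libraries held 0.855, 0.479 and 0.221 CPM and the BHB libraries 0.328, 0.418 and 0.836 CPM, all 6 below the lowest control. The log2 fold change was -2.65 in low glucose (SE 0.596, edgeR adjusted p = 0.0410), a 6.26-fold fall. With BHB it was -2.63 (SE 0.597) and just missed the threshold (edgeR adjusted p = 0.0564). It passed there in DESeq2 (0.000552), without the filter (0.0379), with only the libraries compared (0.0459), and without low glucose replicate 1 (0.0475) or 3 (0.0347). The low glucose call was lost in limma-voom (adjusted p = 0.0790), and without control replicate 1 or 3 or low glucose replicate 2 or 3 (adjusted p of 0.127 to 0.196). Counts were low, 13 to 56 in the low glucose libraries.

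HSPB2, which lies beside CRYAB in the ARS-UCD2.0 assembly and binds a muscle kinase, had 56, 18 and 24 counts in control, 4, 13 and 0 in low glucose and 4, 19 and 8 with BHB. Its log2 difference was -2.61 in low glucose (95% interval -5.23 to 0.00361) and did not pass. The counts of CRYAB and HSPB2 were whole in every library, so no fragments were divided between these neighbours, but the use of strand in counting is not given in the sources used here. HSPB6, a small heat shock protein of smooth muscle, stood at 5.09, 4.73 and 4.98 CPM in control, at 2.73, 2.39 and 3.14 CPM in low glucose and at 2.21, 4.26 and 2.11 CPM with BHB. No library of either low glucose medium reached the lowest control, yet the test was not passed, at -0.84 (SE 0.310, edgeR adjusted p = 0.386) and -0.78 (SE 0.310, edgeR adjusted p = 0.528). HSPB3, another muscle form, lay at 1.46 to 1.74 CPM in control and 0.611 to 1.17 CPM in low glucose, while BHB replicate 3, at 2.31 CPM, was the highest of all. The log2 difference of HSPB3 in low glucose, -0.69 (95% interval -1.83 to 0.45), did not pass.

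In HSPB1, HSPB8 and HSPB11 the libraries of all media overlapped, with single libraries outside the control range, and none of these genes passed. HSPB1, the widely expressed HSP27, stood at 1677, 2670 and 2343 CPM in control, at 1886, 2437 and 2799 CPM in low glucose and at 2153, 2925 and 2024 CPM with BHB, with log2 differences of 0.09 in both media (95% intervals -0.34 to 0.52 and -0.34 to 0.51). HSPB8, which works with BAG3 in clearing damaged filament proteins, stood at 0.12 and 0.21, and HSPB11, a subunit of the transport trains of cilia, at -0.31 and -0.29, in low glucose and with BHB. The median over the 8 tested members was -0.77 in low glucose and -0.56 with BHB, against 0.02 and 0.01 over all genes tested. Outside this role the median over 58 tested members was 0.03 and -0.00606.

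**Figure D3:**
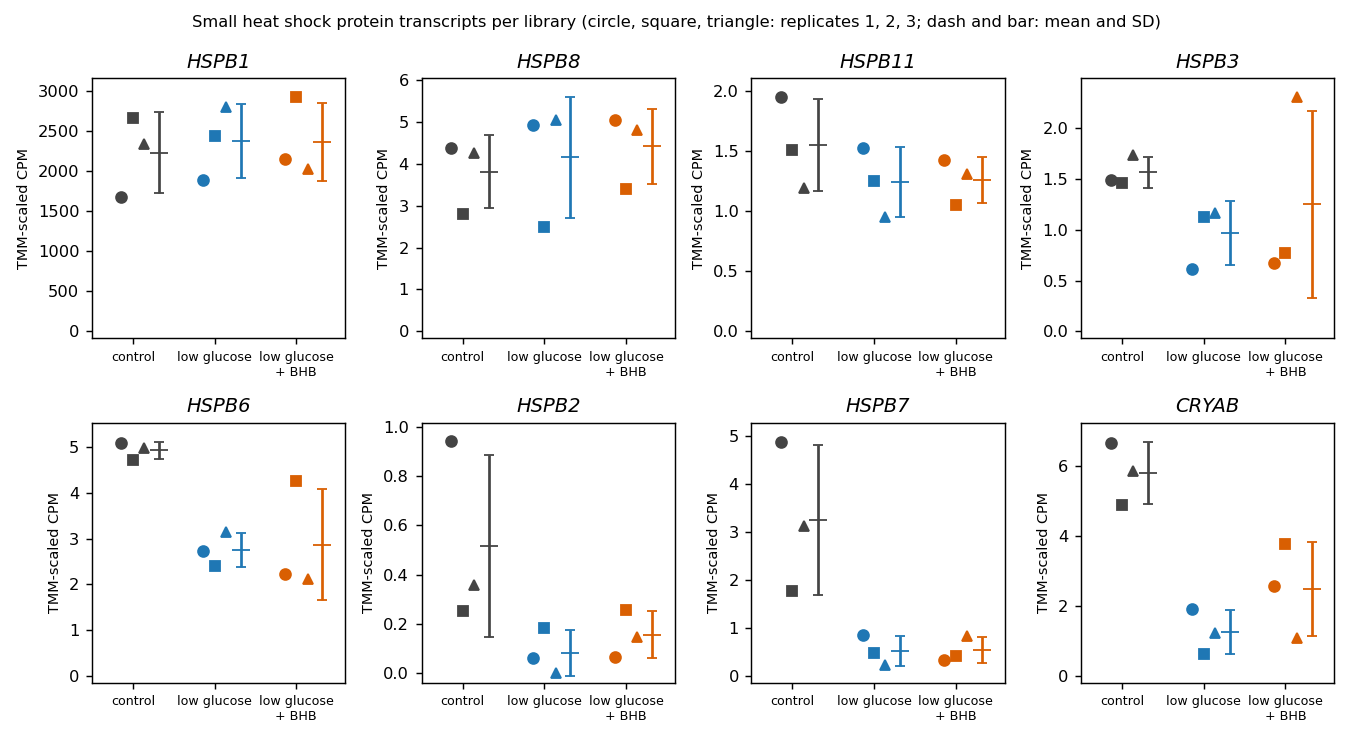
TMM-scaled CPM of the 8 tested small heat shock protein genes in each library, by medium (circle, square and triangle for replicates 1, 2 and 3), with the mean and SD beside the points. CRYAB, HSPB7 and HSPB6 have every low glucose and BHB library below the lowest control library, whereas HSPB1 and HSPB8 overlap between all media.

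Some markers of other cells were also lower than control. Among the blastocyst lists, 1 of 8 hypoblast markers was called lower in low glucose and 1 with BHB. The hypoblast medians were 0.14 and 0.16. Of the 12 trophectoderm and 6 epiblast markers tested, 0 were called lower in either medium. All 13 mesenchyme markers had counts, 5 were called lower in low glucose, against 2.02% of all genes, and 5 with BHB, against 1.38%, and their medians were -1.64 and -1.61. Their summed level was 1221 to 2007 CPM in control, 958 to 1164 CPM in low glucose and 894 to 1210 CPM with BHB, and MYL9 was its largest part, at a mean of 629, 710 and 695 CPM. Control replicate 1, the highest library in CRYAB, HSPB7, HSPB6 and HSPB2, also had the highest mesenchyme sum. Every control sum lay above every sum of the other media. The gap was narrow between control replicate 2 (1221 CPM) and BHB replicate 1 (1210 CPM), with CRYAB at 4.86 and 2.58 CPM. At sums of 1097 and 1096 CPM, BHB replicate 2 and low glucose replicate 3 had 3.75 and 1.22 CPM of CRYAB. MYL9, the largest part of the sum, did not fall in mean. These pairs therefore cannot show whether CRYAB follows the markers that did. Of the 18 cumulus and granulosa markers, all had counts over the series, 5 were lower in low glucose and 4 with BHB, and their medians were -0.98 and -0.90. Their sums, 819 to 968, 534 to 1267 and 605 to 1157 CPM, overlapped between media. The list was mixed. PTGS2, the largest part of these sums, had a mean of 451, 694 and 666 CPM, and HSD3B1 45.3, 59.5 and 59.3 CPM. CYP19A1 averaged 21.2, 19.5 and 22.4 CPM and FSHR 4.18, 4.85 and 3.60 CPM. Among the steepest falls, LUM averaged 139, 14.3 and 12.3 CPM and VCAN 74.9, 12.8 and 7.71 CPM. INHA, with 151 counts over the series, averaged 0.573, 0 and 0.241 CPM. The part of any of these cell types in the falls of CRYAB and HSPB7 was not tested. In pools of whole embryos, fewer cells of a type and less RNA per cell cannot be told apart.

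**Figure D4:**
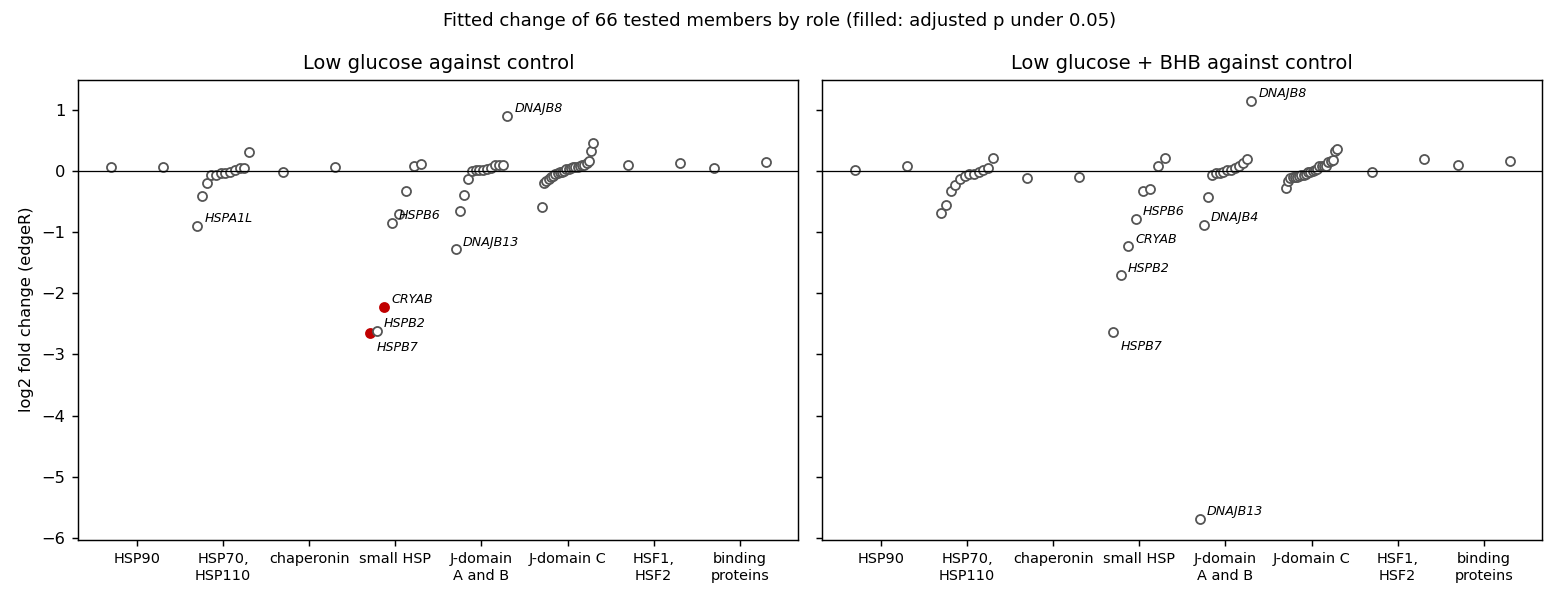
Log2 fold change of each of the 66 tested members against control, grouped by role on the horizontal axis, for low glucose (left) and low glucose with BHB (right), with filled red points for an adjusted p under 0.05. The 2 filled points are CRYAB and HSPB7 in low glucose, and the lowest point on the right, DNAJB13, rests on 1 count in the BHB libraries, so its height depends on the fit's prior count.

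J-domain proteins of classes A and B deliver clients to HSP70. Of 14 tested, edgeR called 0 in low glucose and 0 with BHB, against 2.02% and 1.38% of all genes called lower. At an unadjusted p under 0.05 there were 0 and 2 (14.3%), against 7.33% and 7.32% of all genes, and the medians were 0.02 and 0.01. DESeq2 called 1 with BHB, DNAJB13, and limma-voom 0. The highest point was DNAJB8, a testis form, at 0.91 and 1.16, which did not pass (edgeR adjusted p = 0.927 and 0.710). DNAJA1, a farnesylated partner of HSPA8, stood at 318, 318 and 276 CPM in control, at 333, 303 and 311 CPM in low glucose and at 271, 292 and 332 CPM with BHB. DNAJB1, the stress-inducible HSP40, held 92.4, 91.3 and 89.5 CPM in control, with log2 differences of 0.10 in low glucose (95% interval -0.21 to 0.40) and 0.19 with BHB (-0.11 to 0.50). Its control libraries were closely grouped and the other media lay on both sides, at 83.8 to 114 CPM and 88.4 to 119 CPM. DNAJB6, which suppresses aggregation of polyglutamine proteins, and DNAJA2 stood at 0.10 and 0.03 in low glucose and at 0.09 and -0.02 with BHB.

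With BHB against control, DNAJB13 and DNAJB4 had the smallest p of these classes. DNAJB4, a relative of DNAJB1, stood at 2.94, 3.60 and 3.70 CPM in control, at 3.10, 1.97 and 1.46 CPM in low glucose and at 1.26, 2.59 and 1.73 CPM with BHB, where all 3 libraries lay below control (-0.87, SE 0.372, edgeR adjusted p = 0.612). DNAJB13, a component of the radial spokes of sperm flagella and cilia, had 30, 25 and 18 counts in control, 8, 0 and 20 in low glucose and 1, 0 and 0 with BHB. The ratio of control to BHB was 69.9, with an exact 95% counting interval of 12.2 to 2798 that covers counting error only. It did not pass in edgeR (adjusted p = 0.225) and passed in DESeq2 (adjusted p = 0.0381).

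Class C joins J-domain proteins with diverse tasks. Of 24 tested, edgeR, DESeq2 and limma-voom called 0 in either medium, against 2.02% and 1.38% of all genes called lower by edgeR. At an unadjusted p under 0.05 there were 1 and 0, against 7.33% and 7.32% of all genes. The medians were 0.04 and 0.00317. All differences lay within -0.59 to 0.46 in low glucose and -0.27 to 0.36 with BHB. DNAJC25 was the 1 member whose libraries lay above control in low glucose, at 43.4, 43.2 and 33.6 CPM against 25.2, 28.8 and 33.5 CPM, with 24.6, 35.5 and 32.6 CPM under BHB. The gap between the nearest libraries was small, and the difference of 0.46 (SE 0.173) did not pass (edgeR adjusted p = 0.417). DNAJC5, the cysteine string protein of secretory vesicles, and DNAJC11, a protein of the mitochondrial cristae complex, stood at 0.07 each in low glucose and 0.08 each with BHB. DNAJC13, which acts on endosomes, stood at -0.01 and -0.06.

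**Figure D5:**
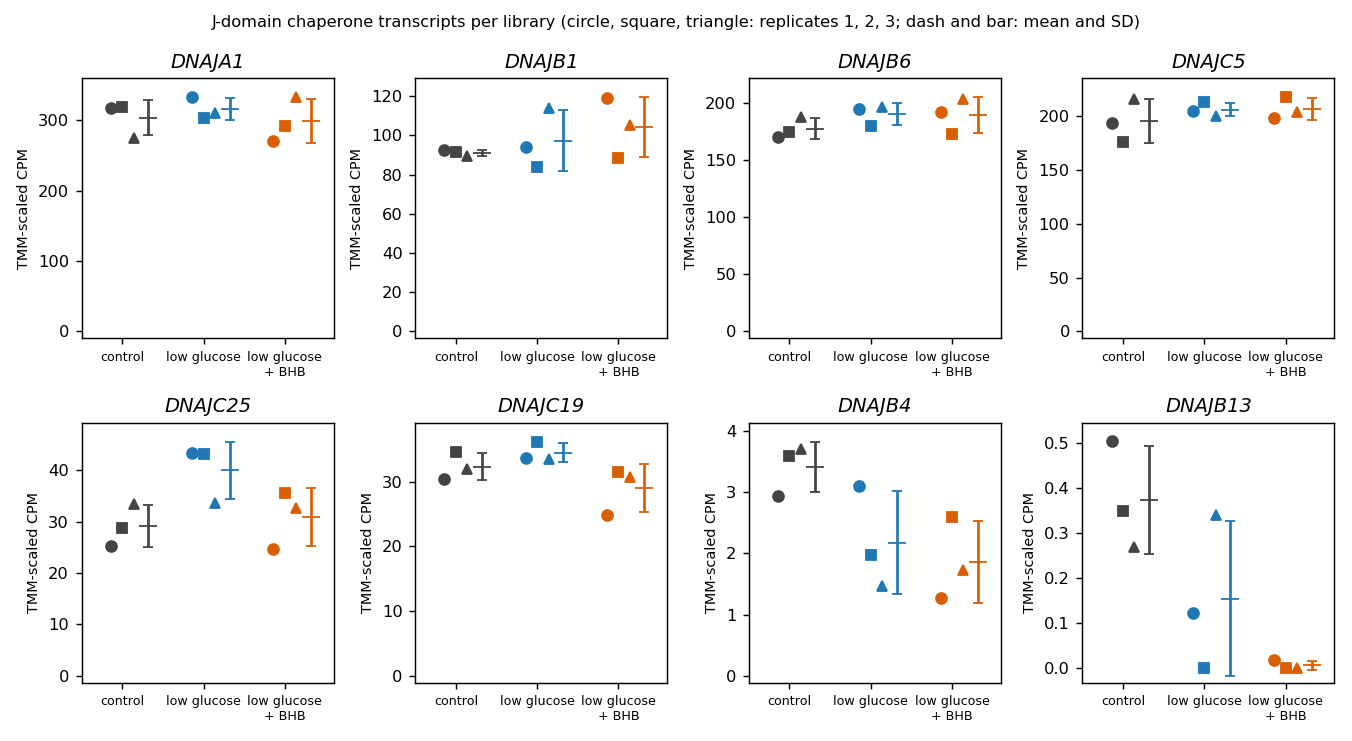
TMM-scaled CPM of 8 J-domain genes in each library, by medium (circle, square and triangle for replicates 1, 2 and 3), with the mean and SD beside the points. DNAJA1, DNAJB1, DNAJB6 and DNAJC5 overlap between media, DNAJC25 is higher in low glucose libraries than in control by a narrow gap, and DNAJB13 is at or near 0 in all 3 BHB libraries.

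HSF1, the main activator of heat shock genes, stood at 117, 118 and 134 CPM in control, at 113, 125 and 167 CPM in low glucose and at 156, 137 and 131 CPM with BHB. The media overlapped, and the log2 differences were 0.14 (95% interval -0.19 to 0.46) and 0.20 (-0.12 to 0.52). HSF2, a factor active in development, stood at 0.10 and -0.01. HSPBP1, which exchanges nucleotides on HSP70, stood at 0.05 and 0.18, and HSPBAP1, which binds HSPB1, at 0.15 and 0.11. HSPBAP1 varied most in the BHB libraries, at 30.9, 29.2 and 70.3 CPM.

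With BHB against control, edgeR called 0 of the 66 tested members, against 1.38% of all genes called lower and 0.00607% higher. At an unadjusted p under 0.05 there were 5, against 7.32% of all genes, and all 5 were lower (HSPB7, DNAJB13, CRYAB, HSPB6 and DNAJB4). DESeq2 called 2 lower, HSPB7 and DNAJB13, and limma-voom 0. BHB libraries lay wholly below control in 5 members, or 7.58%, against 8.56% of all genes, and wholly above in 0, against 4.77%. In low glucose the corresponding counts were 5 below, all small heat shock proteins, against 8.85% of all genes, and 1 above, against 4.31%.

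The contrast of BHB with low glucose alone asks what the ketone body adds at equal glucose. There edgeR, DESeq2 and limma-voom each called 0 members, edgeR called 0% of all genes, and 1 member, DNAJB13, had an unadjusted p under 0.05, against 1.64% of all genes. BHB libraries lay wholly below low glucose in 1 member (2.54% of all genes) and wholly above in 1 (2.96%). DNAJC19, a part of the mitochondrial import motor, was lower in all 3 BHB libraries (24.8, 31.5 and 30.8 CPM) than in low glucose (33.7, 36.2 and 33.6 CPM), at -0.25 (95% interval -0.54 to 0.04). DNAJC30, which serves the mitochondrial ATP synthase, was higher, at 31.9, 28.1 and 31.5 CPM against 20.8, 27.4 and 25.5 CPM, at 0.31 (-0.06 to 0.69).

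With both low glucose media set against control in the same fit, which shares its libraries with the comparisons above, CRYAB and HSPB7 were again the members called lower, 2 of 66 against 2.87% of all genes, and 0 were higher, against 0.00607%. At an unadjusted p under 0.05 there were 6, against 8.7% of all genes. All 6 libraries lay below control in 3 members, CRYAB, HSPB7 and HSPB6, against 5.56% of all genes, and above in 0, against 1.03%. HSPB7 stood at -2.64 (SE 0.470, edgeR adjusted p = 0.00701) and CRYAB at -1.72 (SE 0.383, edgeR adjusted p = 0.0289). The CRYAB call was lost without any one of control replicates 1, 2 and 3, low glucose replicates 2 and 3 and BHB replicate 1 (adjusted p of 0.0507 to 0.146), and the HSPB7 call without control replicate 1 (adjusted p = 0.0685). The 19 members at 100 CPM or more had differences from -0.07 to 0.17 in this contrast. Their widest 95% intervals reached -0.38 and 0.58, or 1.30-fold lower and 1.49-fold higher, and the smallest adjusted p among them was 0.857.

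Genes around the chaperones were read from lists. Over all genes tested, edgeR called 2.02% lower in low glucose and 1.38% with BHB. An unadjusted p under 0.05 was reached by 7.33% and 7.32% of all genes. At these shares a count of 0 called in a list this short says little about the list. Among 33 tested co-chaperones of HSP70 and HSP90, 0 passed in edgeR in low glucose and 0 with BHB, with 2 at an unadjusted p under 0.05 in each, FKBP5 and CLPB, and medians of 0.04 and 0.04. FKBP5, a partner of HSP90 in steroid receptor complexes, averaged 37.8 ± 3.73, 24.9 ± 3.88 and 25.1 ± 0.740 CPM in control, low glucose and BHB libraries (SD, n = 3 each), and fell in the contrast of both media with control (-0.60, SE 0.124, edgeR adjusted p = 0.0188). CLPB, a mitochondrial disaggregase, stood at 0.38 and 0.40 and did not pass in any of the 4 comparisons. The cytosolic chaperonin TRiC with prefoldin had 0 of 14 past the threshold in both media, with 0 at an unadjusted p under 0.05, and differences within -0.13 to 0.20 in low glucose and -0.16 to 0.11 with BHB. Of 21 genes that HSF1 is known to induce, many of them members, 2 fell in low glucose, CRYAB and the collagen chaperone SERPINH1, and 1 with BHB, SERPINH1, with list medians of 0.02 and -0.03. SERPINH1 averaged 107 ± 8.67, 41.0 ± 2.36 and 41.6 ± 9.15 CPM in control, low glucose and BHB libraries (SD, n = 3 each). Of a list of 4 genes of other heat shock factors and HSF1 binding proteins, 3 were tested and 0 passed, with 0 at an unadjusted p under 0.05 in both media and medians of -0.65 and -0.57. The 7 chaperones of the endoplasmic reticulum left out above had 0 past the threshold in both media, 0 at an unadjusted p under 0.05, and medians of 0.17 and 0.02.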

How the data were processed

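Polyadenylated RNA from pooled blastocysts was sequenced with a NEBNext Ultra II library kit, per the labels' protocols. The authors deposited a gene table of estimated counts, many of them not whole numbers. The submitters' processing notes name fastp, kallisto, DESeq2 and the build bosTau9; the sources used here give no versions, annotation or strand setting. Groups came from sample titles and columns from sample descriptions.

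Estimated counts were rounded and fitted in edgeR 4.0.16 (R 4.3.3): filterByExpr (minimum count 10, minimum total 15) kept 16469 of 22127 genes, libraries were scaled by TMM, and a single quasi-likelihood fit of 3 group means over 9 libraries gave 4 two-sided comparisons, adjusted by Benjamini-Hochberg over all genes tested. Each standard error is the log2 fold change over the root of its F value, and intervals are at 95%. CPM were averaged over TMM-scaled libraries. The steps were tested on simulated data. Replicates differed by more than sampling noise (smallest chi-square per degree of freedom 39.2).

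The members, lists and tests were chosen with earlier results of these data known. Named were members past the threshold, the 5 of smallest p per comparison, the 3 with most CPM per role, 18 fixed members and those not tested. HSPB3, HSPB11, HSPA4L, DNAJB8 and DNAJC14 were named after their values were seen, and the rest are given as ranges. Same-numbered libraries of the low glucose media deviated from their group means together (correlations 0.158, 0.461 and 0.157). By the rule of over 0.1 this pairs them, from the data and not the labels. Control replicate 1 also passed with low glucose replicate 1 (0.251) and BHB replicate 1 (0.279), and control replicates 2 and 3 did not pass with their numbers. All same-numbered correlations were positive, and most of unlike number were negative. Libraries of unlike number also passed, such as low glucose replicate 3 with BHB replicate 1 (0.118). Control replicate 3 passed with BHB replicate 2 (0.195) and low glucose replicate 2 (0.159). The rule alone therefore does not set same-numbered libraries apart. Tried as alternatives were RLE scaling, leaving out the filter, a mean count of at least 50, a replicate block, a fit of the compared libraries alone, DESeq2 1.42.0, limma-voom (limma 3.58.1) and leaving out each library. Gene symbols were matched to RefSeq (ARS-UCD2.0) for neighbours only, 70 of 70. Figures used matplotlib 3.10.9.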

Additional observations from a re-analysis of the deposited data

How the results depend on the processing

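Against the 2 members lower in low glucose, limma-voom gave 1, and leaving out single libraries gave 0 to 2. Against 0 lower with BHB, no filter on low counts gave 1, fitting only the libraries compared gave 1, DESeq2 gave 2, and leaving out single libraries gave 0 to 1. For both media together, where 2 were lower, leaving out single libraries gave 0 to 3. The counts of higher members stayed at 0 in every alternative run. With the replicate number as a block the counts were the same as without it, 2, 0, 0 and 2 lower in the 4 comparisons, so the block changed no call. Of 2065 values of named members under alternatives, 17 lost a call, 7 gained one and none called reversed; 155 without a call changed sign around 0. Of 504 medians by role, 17 moved by more than the spread between replicates, most of them of the small heat shock proteins. No alternative moved the median of all genes by over 0.1. Members with few counts, such as HSPB2, DNAJB13 and HSPA4L, have wide intervals. How much of this is depth was not tested, and libraries of 1 medium can differ widely there, as in HSPA4L, with 3, 58 and 55 counts with BHB.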
